A study of Mus musculus with 10 samples.

Results

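The matrix metalloproteinases (MMPs), the ADAMTS proteases, the ADAMTS-like (ADAMTSL) proteins and the tissue inhibitors of metalloproteinases (TIMPs) were followed in lung RNA. They were taken by gene symbol alone, as every row of the count table named Mmp, Adamts, Adamtsl or Timp with a number, and a letter after it where an Mmp symbol has one. The symbol rule itself uses no measured value, although this gene set was picked for study with earlier results of these data known. It gave 51 of the 54532 genes in the table, made up of 23 MMPs, 19 ADAMTS genes, 5 ADAMTSL genes and 4 TIMPs. RNA sequencing covered whole lung of wild-type mice in 10 libraries. The Vehicle group held 3 libraries, and the LPS group held 3 from mice given lipopolysaccharide, a bacterial cell wall component that sets off innate inflammation. The LPS+TSLP group held 4 libraries from mice given recombinant thymic stromal lymphopoietin (TSLP), an epithelial cytokine, ahead of LPS. Doses, routes, intervals, strain, age and sex are not given in the sources used here, and no label says whether the libraries of a group came from separate animals, so p-values measure only the spread between these libraries, which may be technical. LPS replicate 1 differed from the other LPS libraries in sex-linked genes, as given below, so the LPS group held more than 1 animal.

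MMPs are zinc proteases that cut collagens, laminins, elastin and many cell surface and signalling proteins, and most are made as inactive precursors. ADAMTS proteases trim procollagens, split large matrix proteoglycans or act on von Willebrand factor, while ADAMTSL proteins resemble them but lack the protease domain and sit in the microfibril network. TIMPs bind the active site of these proteases and block it, and in the lung the balance of protease and inhibitor is best known from the release of neutrophil and macrophage enzymes in injury and from matrix turnover by fibroblasts.

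Total counts per library were 16175172 to 18374461, and the members took 0.342% to 0.394% of them in Vehicle, 0.234% to 0.301% in LPS and 0.222% to 0.349% in LPS+TSLP. After a filter on low counts 17139 genes were tested. LPS+TSLP replicate 1 stood apart with 13.1% of its counts in mitochondrial genes, against 2% to 6.5% in the rest of its group, 1.2% to 2.58% in LPS and 1.11% to 1.27% in Vehicle, so LPS+TSLP replicates 2 and 3 (6.5% and 5.35%) were also above every Vehicle and LPS library. LPS replicate 1 stood apart in sex-linked genes, with the X-inactivation transcript Xist at 189.7 CPM against at most 0.455 CPM in the other libraries and the Y-linked gene Ddx3y at 0. Ddx3y was 6.15 to 11.9 CPM in Vehicle and 57.7 to 96.1 CPM in the LPS libraries 2 and 3 and the LPS+TSLP libraries. Eif2s3y, also Y-linked, was 10.9 to 22.4 CPM in Vehicle and 31.6 to 75.9 CPM in those libraries. Kdm5d (13.3 to 18.3 and 13.4 to 26.1 CPM) and Uty (2.07 to 6.3 and 5.69 to 20.8 CPM) overlapped. The Vehicle group thus differed as a whole in Ddx3y and Eif2s3y. This coincides with treatment in both comparisons against Vehicle, and its cause was not tested. All 15 alveolar epithelial markers, which define the labelled tissue, were detected. They summed to 21410 to 31750 CPM in Vehicle and 9713 to 20440 CPM in LPS. The sum was 5078 CPM in LPS+TSLP replicate 1 and 20100 to 29780 CPM in the other LPS+TSLP libraries. CPM is the count of a gene scaled to a common library total.

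Of the 51 members 41 passed the filter on low counts and 10 did not. Adamts16, Mmp1a, Mmp1b and the enamel protease Mmp20 had 0 counts in all 10 libraries, and a count of 0 allows up to 3 counts in a library. Mmp7 (matrilysin) and Mmp10 (stromelysin 2) had 4 counts each over all libraries, Mmp21 had 2, Adamts18 had 8, the membrane-type protease Mmp24 had 27 and Adamts19 had 42. Of the 27 counts of Mmp24, 19 were in LPS replicate 3. Where exons overlap a gene on the opposite strand the counts of the pair cannot be told apart, since the strand setting is not given in the sources used here. Among the tested members this touched 28.3% of the exon bases of Mmp19, 21.3% of Timp3 (with Syn3), 12% of Mmp28 and of Adamts9, 10.6% of Adamts8, and 5.58% or less of Adamts4, Adamts7, Mmp11, Mmp12 and Timp4, and among the members not tested 13.6% of Mmp24, 11.5% of Mmp7 and 10.8% of Mmp1b.

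Many of the MMP genes lie side by side. The annotation of GRCm38 places Mmp13, Mmp12, Mmp1b, Mmp3, Mmp1a, Mmp10, Mmp8, Mmp27, Mmp20 and Mmp7 in that order on chromosome 9, from 7272514 to 7699585. RefSeq (GRCm38.p6) gave the bases ahead of the transcription start for 36 of the 51 members. These were searched for AP-1 sites (TGANTCA, both strands), TATA boxes (TATAAA, on the strand of the gene), GC boxes (GGGCGG, both strands) and NF-kB sites (GGANTTTCC, both strands) in the 250 bases before the start. Among all 32851 windows of that length, 6.75% held the AP-1 letters, 7.59% the TATA letters, 32.7% the GC box and 1.07% the NF-kB letters. The AP-1 letters were in 8 of the 10 chromosome 9 MMP genes and in no other member with a window, and 7 of those 10 held both AP-1 and TATA letters while none held a GC box. The GC box was in 20 members with a window. These were Mmp14, 7 of the 8 that fell after LPS, 10 of the 19 tested but not called after LPS, and 2 of the 8 not tested. Mmp2, Mmp17, Adamts7 and Adamtsl1, which also fell, had no window, nor had Mmp9. The RefSeq starts used for Mmp11 and Adamts20, both counted here, lay 3994 and 61068 bases from the start in the annotation. The NF-kB letters were in 1 member with a window, Mmp1b, which had no counts. A match of letters is a description of the window and not of binding.

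The windows printed here contrast the members whose transcripts changed in opposite directions (Mmp14 and Mmp15) with the chromosome 9 type (Mmp3, Mmp13), and add Mmp8 and Timp1, the collagenase and the inhibitor that mark this set. All run 5′ to 3′ on the plus strand of GRCm38.p6 and end at the base before the RefSeq start, except that the Mmp15 window stops 28 bases earlier, ahead of the start in the annotation, with the motif letters in capitals (CCGCCC is the GC box read on the other strand). The Mmp14 window, chr14:54431348-54431597, holds 2 adjoining GC boxes that begin 19 and 13 bases before the RefSeq start. The Mmp15 window, chr8:95352046-95352267, holds 1 that begins 106 bases before the RefSeq start, and the Timp1 window, chrX:20869916-20870165, holds 1 that begins 8 bases before it. In Mmp3, chr9:7445702-7445821, the AP-1 letters begin 46 and the TATA letters 7 bases before the start. In Mmp13, chr9:7272394-7272513, they begin 35 and 16 bases before it. The Mmp8 stretch, chr9:7558309-7558428, holds none of the motifs searched.
Mmp14: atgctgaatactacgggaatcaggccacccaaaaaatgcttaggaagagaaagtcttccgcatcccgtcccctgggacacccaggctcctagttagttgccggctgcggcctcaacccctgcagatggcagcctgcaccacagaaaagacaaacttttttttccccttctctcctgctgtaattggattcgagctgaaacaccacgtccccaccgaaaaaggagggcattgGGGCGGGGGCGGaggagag
Mmp15: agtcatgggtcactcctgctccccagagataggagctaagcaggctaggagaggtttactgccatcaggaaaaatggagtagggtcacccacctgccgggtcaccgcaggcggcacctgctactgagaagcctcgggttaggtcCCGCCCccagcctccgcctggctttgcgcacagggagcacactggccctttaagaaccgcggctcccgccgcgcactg
Timp1: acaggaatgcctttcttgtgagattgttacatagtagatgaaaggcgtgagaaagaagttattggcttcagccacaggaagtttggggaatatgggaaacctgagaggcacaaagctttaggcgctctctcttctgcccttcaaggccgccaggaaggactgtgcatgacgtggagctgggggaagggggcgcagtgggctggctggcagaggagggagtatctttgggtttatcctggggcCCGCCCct
Mmp3: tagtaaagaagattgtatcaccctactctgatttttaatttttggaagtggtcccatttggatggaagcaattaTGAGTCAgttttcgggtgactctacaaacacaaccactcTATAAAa
Mmp13: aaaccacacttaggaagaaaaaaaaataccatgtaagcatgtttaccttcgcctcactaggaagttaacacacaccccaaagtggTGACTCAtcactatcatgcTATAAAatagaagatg
Mmp8: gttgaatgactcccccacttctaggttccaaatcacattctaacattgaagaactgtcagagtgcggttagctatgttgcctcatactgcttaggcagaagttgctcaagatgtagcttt

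LPS against Vehicle asks what the bacterial stimulus did to these transcripts. Of the 41 tested members 12 fell, 1 rose (Mmp14) and 28 were not called, at an adjusted p under 0.05 by the quasi-likelihood test of edgeR with Benjamini-Hochberg adjustment over all genes. Over all 17139 genes 24.9% were called, 14.2% higher and 10.7% lower. The median log2 fold change was −0.47 over the 41 members and 0.01 over all genes. The genes that fell were 5 MMPs (Mmp2, Mmp11, Mmp15, Mmp17 and Mmp28), 3 ADAMTS proteases (Adamts2, Adamts7 and Adamts17), 3 ADAMTSL genes (Adamtsl1, Adamtsl3 and Adamtsl5) and 1 inhibitor, Timp2. Mmp8, Mmp9 and Timp1, which are often tied to neutrophils and acute inflammation, were not called. In whole tissue fewer cells of a type and less RNA per cell cannot be told apart.

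**Figure D1:**
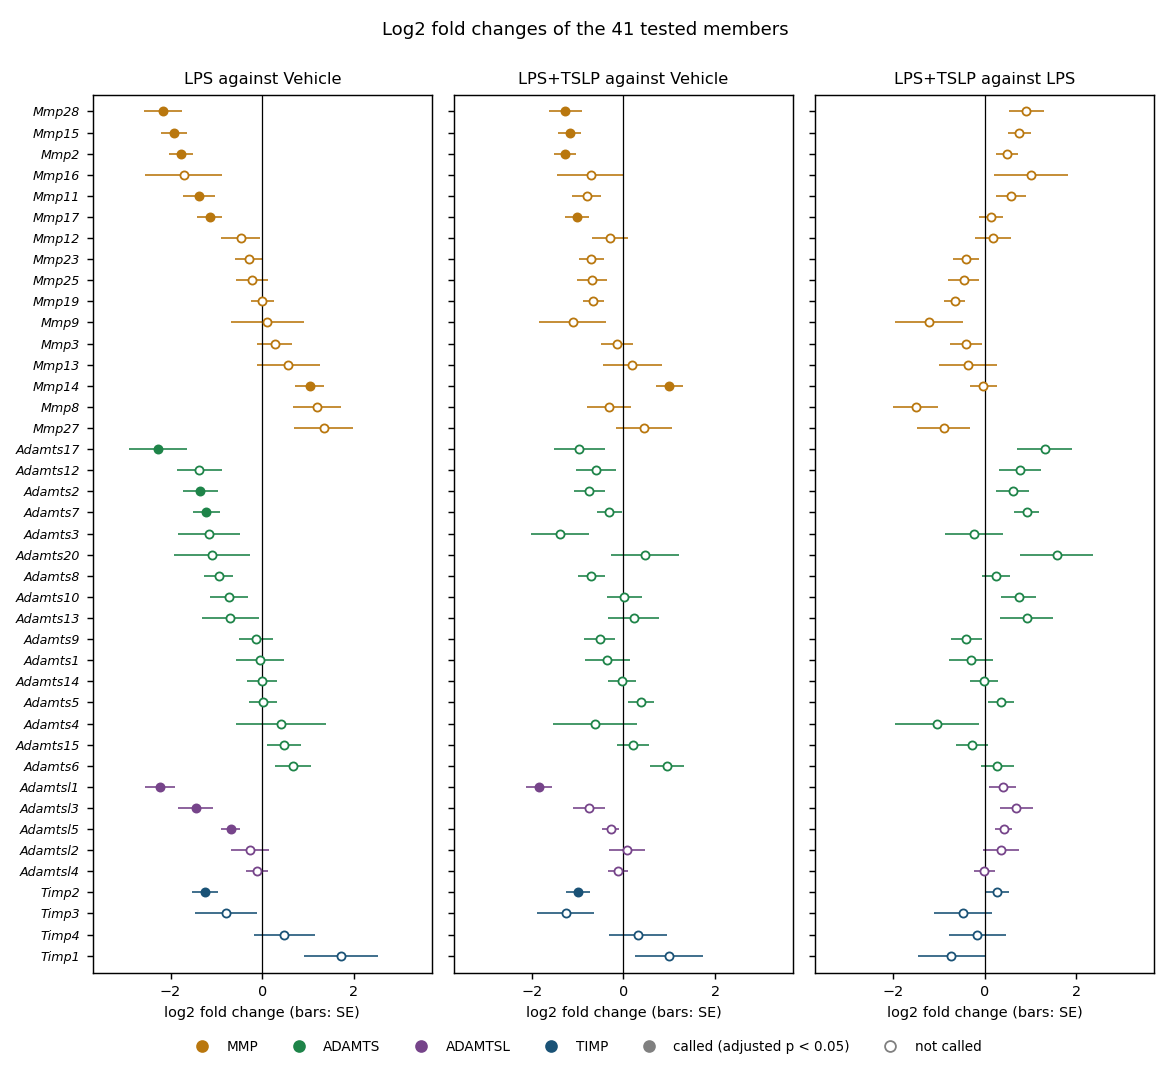
Log2 fold change (horizontal axis, bars are ± SE) of the 41 tested members in the 3 comparisons, coloured by family, with filled points for an adjusted p under 0.05. In LPS against Vehicle 12 filled points lie left of 0 and 1, Mmp14, lies right of it, in LPS+TSLP against Vehicle 6 lie left and 1 right, and in LPS+TSLP against LPS no point is filled.

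Mmp14, Mmp2 and Timp2 work together at the cell surface, where the membrane-anchored protease MMP14 holds TIMP2 and through it activates pro-MMP2, a gelatinase that cuts denatured and basement membrane collagen. Mmp14 (ENSMUSG00000000957) was at 94.1, 131 and 205 CPM in the Vehicle libraries, 291, 234 and 306 CPM in LPS, and 385, 220, 283 and 223 CPM in LPS+TSLP. Every library of both LPS-treated groups was above the highest Vehicle library. The log2 fold change in LPS against Vehicle was 1.03 (SE 0.32, adjusted p = 0.0354). Mmp2 (ENSMUSG00000031740, chr8:92827291-92853420) went the other way, at 259, 177 and 221 CPM in Vehicle, 45.7, 76.8 and 62.2 CPM in LPS, and 74.9, 82.9, 73.3 and 122 CPM in LPS+TSLP. The lowest Vehicle library stood above every LPS and LPS+TSLP library, and the log2 fold change in LPS was −1.77 (SE 0.26, adjusted p = 0.00242). Timp2 (ENSMUSG00000017466, chr11:118301069-118355740) was at 1140, 902 and 699 CPM in Vehicle, 301, 415 and 386 CPM in LPS, and 321, 467, 393 and 619 CPM in LPS+TSLP. Its groups did not overlap between Vehicle and either treated group, and it fell by 1.25 on the log2 scale in LPS (SE 0.28, adjusted p = 0.0107).

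Scaled by exon length, so that levels can be set side by side, the ratio of Mmp14 to Timp2 was 0.054, 0.0947 and 0.192 in the Vehicle libraries. It was 0.632, 0.368 and 0.519 in LPS and 0.785, 0.308, 0.471 and 0.236 in LPS+TSLP. The ratio of Mmp2 to Mmp14 was 4.86, 2.4 and 1.9 in Vehicle, so Mmp2 was the more abundant transcript in each control library. It was 0.278, 0.582 and 0.359 in LPS and 0.344, 0.666, 0.458 and 0.964 in LPS+TSLP, below 1 in all 7 treated libraries. These ratios are descriptions of RNA and were not tested.

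**Figure D2:**
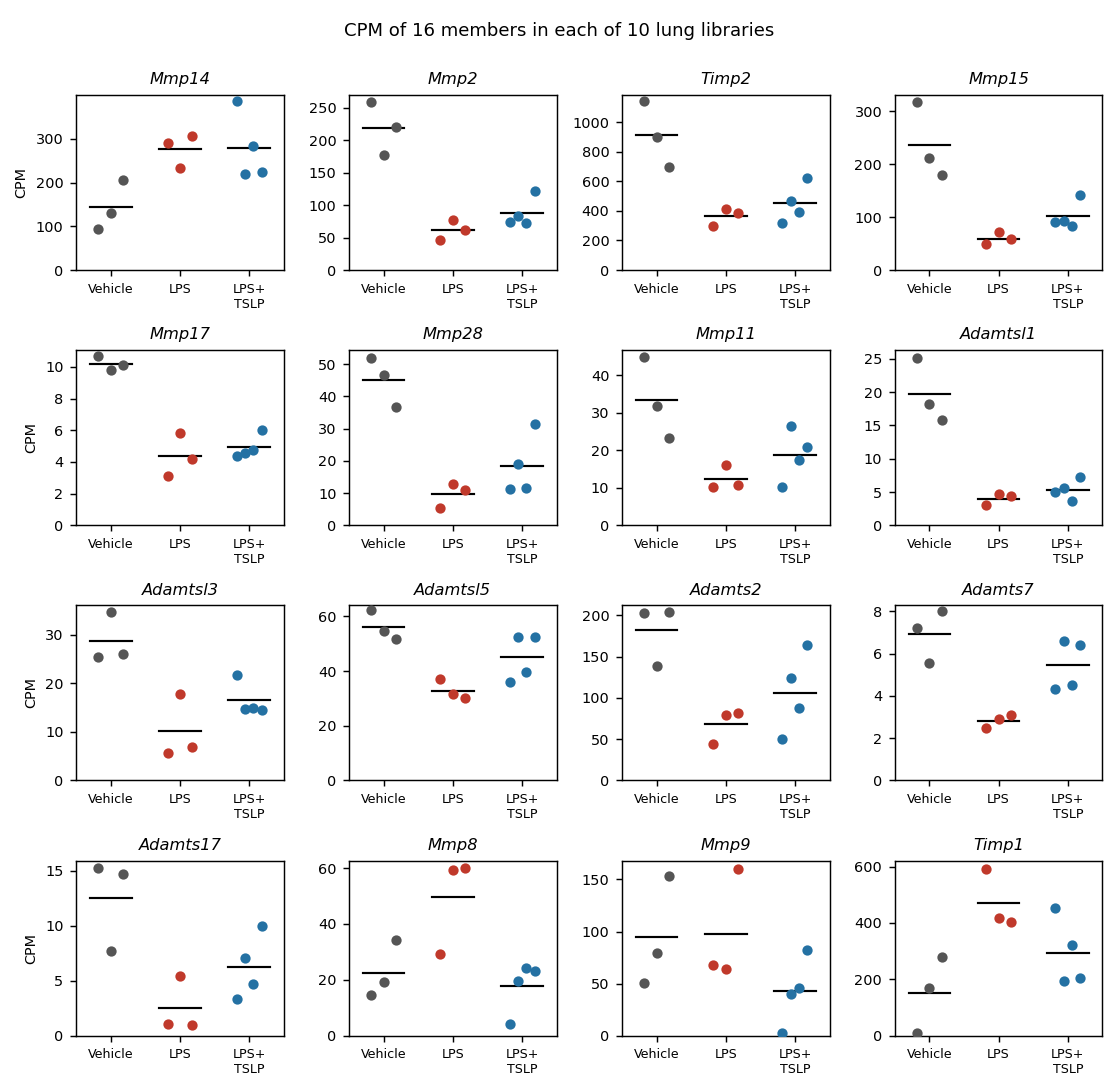
CPM (vertical axes, linear and starting at 0) of 16 members, one point per library, with a line at the group mean. Mmp14 is higher in all 7 treated libraries than in the 3 Vehicle libraries. Mmp2, Timp2, Mmp15, Mmp17, Mmp28, Adamtsl1 and Adamtsl3 are lower in all 7, and Mmp8, Mmp9 and Timp1 have wide or overlapping groups.

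Among the other membrane-type MMPs tested none rose. Mmp15, which encodes a transmembrane protease of the same subfamily, was at 317, 211 and 180 CPM in Vehicle and at 48.4, 71.6 and 58.1 CPM in LPS. The groups did not overlap, and it fell by 1.92 on the log2 scale (SE 0.28, adjusted p = 0.00238). Mmp17, whose product is held by a lipid anchor, was at 10.7, 9.8 and 10.2 CPM in Vehicle and 3.14, 5.86 and 4.21 CPM in LPS, and fell by 1.15 on the log2 scale (SE 0.28, adjusted p = 0.0141). Mmp16 and Mmp25, the latter known from leukocytes, were not called, with log2 fold changes of −1.72 and −0.23. Mmp28 (epilysin), a secreted MMP of epithelia, was at 52, 46.6 and 36.8 CPM in Vehicle and 5.32, 12.7 and 10.9 CPM in LPS (log2 fold change −2.17, SE 0.41, adjusted p = 0.006). Mmp11 (stromelysin 3), known from stromal cells, was at 44.9, 31.8 and 23.4 CPM in Vehicle and 10.1, 16.1 and 10.7 CPM in LPS (log2 fold change −1.38, SE 0.35, adjusted p = 0.017). In Mmp17, Mmp28 and Mmp11 every LPS library was below every Vehicle library.

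All 5 ADAMTSL genes were tested and 3 of them fell. Adamtsl1 was at 25.2, 18.2 and 15.8 CPM in Vehicle and 3.02, 4.67 and 4.37 CPM in LPS, with no overlap (log2 fold change −2.23, SE 0.32, adjusted p = 0.00219). It had the smallest adjusted p of the members in this comparison. Adamtsl3 was at 25.5, 34.6 and 26 CPM in Vehicle and 5.66, 17.8 and 6.87 CPM in LPS, so LPS replicate 2 lay between the other LPS libraries and Vehicle (log2 fold change −1.45, SE 0.38, adjusted p = 0.0195). Adamtsl5 was at 62.4, 54.5 and 51.6 CPM in Vehicle and 37, 31.6 and 30.1 CPM in LPS, the smallest of the called differences (log2 fold change −0.69, SE 0.20, adjusted p = 0.0314). Adamtsl2 and Adamtsl4, both known from human microfibril disorders, had log2 fold changes of −0.27 and −0.11 and were not called.

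Among the proteases that trim procollagen, Adamts2 fell and Adamts3 and Adamts14 were not called (log2 fold changes −1.15 and −0.01). Adamts2 was at 203, 139 and 204 CPM in Vehicle and 44.1, 78.8 and 81.9 CPM in LPS, without overlap (log2 fold change −1.35, SE 0.38, adjusted p = 0.0252). Of the other ADAMTS proteases, Adamts7, known from vascular smooth muscle, was at 7.2, 5.55 and 8 CPM in Vehicle and 2.46, 2.9 and 3.1 CPM in LPS (log2 fold change −1.22, SE 0.29, adjusted p = 0.014). Adamts17 was at 15.2, 7.73 and 14.7 CPM in Vehicle and 1.06, 5.46 and 0.997 CPM in LPS (log2 fold change −2.27, SE 0.64, adjusted p = 0.0254). LPS replicate 2 was again the nearest to Vehicle, as in Adamtsl3. Of the 6 tested in this role 4 were not called, and 1 had a positive log2 fold change. Adamts12 came nearest of those not called, at −1.37 (adjusted p = 0.0591), without overlap between the groups. It was called lower in 5 of the 23 alternatives. None of the 7 proteoglycan-cleaving members (Adamts1, Adamts4, Adamts5, Adamts8, Adamts9, Adamts15 and Adamts20) was called in the edgeR fit with TMM scaling and filterByExpr. Their log2 fold changes ran from −1.09 for Adamts20 to 0.47 for Adamts15. Adamts8, a gene best known from lung, came nearest at −0.95 (adjusted p = 0.0514). It was called lower in 10 of the 23 alternatives. Among these were edgeR on all 10 libraries with other scaling factors or low-count filters, limma-voom and the DESeq2 Wald test. Adamts13, which cleaves von Willebrand factor, was below 1 CPM in each Vehicle and LPS library.

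The members tied to neutrophils and acute injury varied more within groups. Mmp8, the neutrophil collagenase, was at 14.4, 19.2 and 34.3 CPM in Vehicle and 29.2, 59.5 and 59.9 CPM in LPS, so LPS replicate 1 overlapped the controls (log2 fold change 1.19, SE 0.52, adjusted p = 0.114). It was called in 4 of the 23 alternatives, among them the fit without LPS+TSLP replicate 1, with an adjusted p of 0.0134 to 0.293 over all of them. Mmp9, the gelatinase stored in neutrophil granules, was at 50.6, 79.5 and 153 CPM in Vehicle and 67.9, 63.7 and 160 CPM in LPS, with full overlap (log2 fold change 0.11, SE 0.79, adjusted p = 0.931). Timp1, the inducible inhibitor, was at 9.54, 169 and 280 CPM in Vehicle and 592, 419 and 402 CPM in LPS. The groups did not overlap, but Vehicle replicate 1 lay far below the other controls, and the log2 fold change of 1.72 (SE 0.80) had an adjusted p of 0.133. Over the alternatives the adjusted p was 0.0713 to 0.356 and the log2 fold change 1.18 to 2.67, with 1.18 without Vehicle replicate 1, 2.501 without Vehicle replicate 3 and 2.67 by limma-voom. In the same Vehicle library the 20 neutrophil markers summed to 1325 CPM, against 2883 and 3313 CPM in the others. In LPS they summed to 4922 to 6363 CPM. Of the 20, 8 were called higher, among them Itgam (log2 fold change 2.77) and Trem3 (2.16). None was called lower, but 6 had negative log2 fold changes, and the 20 values ran from −2.08 to 3.02. The part of these cells in the values of Mmp8, Mmp9 and Timp1 was not tested.

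Mmp3 (stromelysin 1), Mmp12 (macrophage elastase), Mmp13 and Mmp27 were not called, with log2 fold changes of 0.27, −0.47, 0.56 and 1.35, and in these 2 groups Mmp27 did not exceed 1.76 CPM. Mmp3 was at 31.5 CPM in Vehicle replicate 1 and at 75 to 96.6 CPM in the other Vehicle and LPS libraries. Timp3, the inhibitor that binds to matrix, was at 626, 529 and 623 CPM in Vehicle and 112, 341 and 544 CPM in LPS, a spread within LPS that left its log2 fold change of −0.79 (SE 0.68) uncalled. Timp4 was at 2.97 to 7.43 CPM in Vehicle and 3.7 to 10.5 CPM in LPS (log2 fold change 0.48, SE 0.67). Adamts1, Adamts4 and Adamts9 had log2 fold changes of −0.05 (SE 0.52), 0.42 (SE 0.98) and −0.13 (SE 0.37). Adamts4, the first aggrecanase described, was at 1.31, 15.7 and 34.3 CPM in Vehicle and 9.24, 13.7 and 42.6 CPM in LPS, so its Vehicle libraries alone spanned most of its range.

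The calls of Mmp2, Mmp15, Mmp28, Timp2 and Adamtsl1 held in all 23 alternatives tried, and these 5 were the ones left of the 13 once Vehicle replicate 1 was omitted. Omitting another library ended the calls of Mmp14, Adamtsl3 and Adamtsl5 (Vehicle replicate 2), Adamts17 (Vehicle replicate 3), Mmp14, Mmp11, Adamts2, Adamts17 and Adamtsl3 (LPS replicate 1), Adamts2 and Adamtsl5 (LPS replicate 2), or Mmp14, Adamts17, Adamtsl3 and Adamtsl5 (LPS replicate 3), and without LPS replicate 2 the log2 fold changes of Adamts17 and Adamtsl3 were −3.49 and −2.10. The call of Adamtsl5 also ended with no low-count filter and with the GC trend (log2 fold change −0.43), the GC trend and replicate number, or the length trend corrected, that of Adamts2 with the GC trend corrected and that of Adamts7 with the GC trend and replicate number. With LPS replicate 1 and LPS+TSLP replicate 1 both omitted, 12 of the 13 calls were kept (Adamts17 was lost) and Mmp8 was added.

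Per length, the order of the transcripts was not the same in the 3 groups. In Vehicle the leading MMPs by mean CPM per kilobase of exon were Mmp2 (64.9), Mmp15 (43.7), Mmp3 (40.4), Mmp9 (26.7) and Mmp14 (24.1). In LPS they were Mmp14 (46.5), Mmp3 (46.2), Mmp9 (27.5), Mmp8 (20.4) and Mmp2 (18.3), where the first and second did not differ beyond their spread over libraries. Mmp14 made up 6.68% to 12% of the summed MMP level in Vehicle and 20.2% to 29.5% in LPS, and Mmp2 made up 22.1% to 32.5% and 8.18% to 11.8%. Among the inhibitors Timp2 led in Vehicle by group mean (234 CPM per kilobase, with Timp1 at 172 and Timp3 at 72.8), but Timp1 was the larger in Vehicle replicate 3. Timp1 led in every LPS library, at 73.1% to 87.8% of the summed TIMP level against 2.82%, 39% and 55% in Vehicle. Leading ADAMTS transcripts were Adamts1 (30.3 in Vehicle, 27.9 in LPS) and, in second place, Adamts2 in Vehicle (19.5) and Adamts15 in LPS (19.7).

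The summed TIMP level per length was 1.61, 2.05 and 2 times the summed MMP level in the Vehicle libraries and 4.58, 3.21 and 2.75 times in LPS. It was 3.9, 2.25, 3.08 and 2.14 times in LPS+TSLP, so each treated library was above each Vehicle library. The higher ratio rested on Timp1, which was not called. It made up 49.5% to 87.8% of the TIMP sum in the treated libraries and 2.82% to 55% in Vehicle. Timp2, the only inhibitor called, fell, and the means per length of Timp2 and Timp3 were lower in both treated groups than in Vehicle. These sums are over transcripts, weigh every member alike and were not tested.

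**Figure D3:**
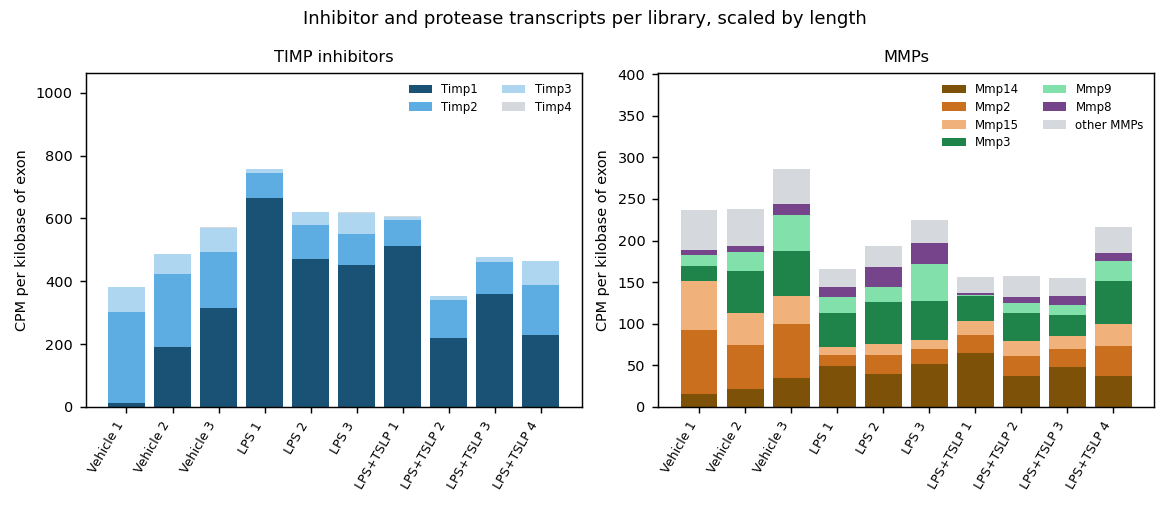
Stacked bars of CPM per kilobase of exon for the 4 TIMPs (left) and for 6 MMPs with the remaining MMPs summed (right) in each of the 10 libraries, both axes linear from 0. Timp1 is 2.82%, 39% and 55% of the TIMP bar in Vehicle and 49.5% to 87.8% in the treated libraries, so the groups overlap, and the Mmp2 part of the MMP bar is smaller and the Mmp14 part larger in every treated library than in every Vehicle library.

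LPS+TSLP against LPS asks whether TSLP given first altered the response. None of the 41 members was called, and 0 of all 17139 genes were called (0.0%) by edgeR. Limma-voom also called 0 genes, and the DESeq2 Wald test called 34, no member among them. At an unadjusted p under 0.05 there were 5 members (Adamts7, Mmp8, Mmp15, Mmp19 and Mmp28) and 1388 genes. The median log2 fold change of the members was 0.18, and 0.02 over all genes. A p that misses the threshold does not show that the groups were alike, and the values of the members are given with their errors.

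Mmp8 was at 4.27, 19.6, 24.1 and 23.2 CPM in LPS+TSLP, where each library was below the lowest LPS library (29.2 CPM). The log2 fold change was −1.51 (SE 0.48, adjusted p = 0.589), and −1.86 to −1.20 over the alternatives. Mmp9 was at 2.84, 40.1, 45.9 and 82.3 CPM, and its log2 fold change was −1.22 (SE 0.74, adjusted p = 0.713). LPS+TSLP replicate 1 held the lowest value of both genes, and in it the neutrophil markers summed to 2486 CPM against 3562 to 4262 CPM in the other 3 libraries of the group. LPS replicate 1 had the highest sum of all 10 libraries (6363 CPM) and the lowest Mmp8 of its group (29.2 CPM). The part of neutrophils in the values was not tested, and none of the 20 markers was called in this comparison. Timp1 was at 454, 195, 320 and 204 CPM, and its log2 fold change was −0.72 (SE 0.72, adjusted p = 0.825).

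All 12 members that fell after LPS had positive log2 fold changes here, and none passed the test. Over all 41 tested members 22 had positive values. The 12 were picked for low values in the LPS libraries, which are the baseline here, so their choice favours positive values. Mmp15 was at 91.1, 93.4, 83.2 and 141 CPM in LPS+TSLP, each above the highest LPS library (71.6 CPM), and its log2 fold change was 0.76 (SE 0.26, adjusted p = 0.589). Adamts7 was at 4.33, 6.59, 4.5 and 6.38 CPM, again above every LPS library, at 0.91 (SE 0.28, adjusted p = 0.589). Mmp28 was at 11.4, 18.9, 11.6 and 31.6 CPM and overlapped LPS (0.91, SE 0.38, adjusted p = 0.601). The values of the other 9 were 0.49 (SE 0.24) for Mmp2, 0.26 (SE 0.26) for Timp2, 0.39 (SE 0.29) for Adamtsl1, 1.31 (SE 0.60) for Adamts17, 0.69 for Adamtsl3, 0.61 for Adamts2, 0.57 for Mmp11, 0.41 for Adamtsl5 and 0.14 for Mmp17. Mmp14, which rose after LPS, was at −0.03 (SE 0.29). This comparison and LPS against Vehicle use the same LPS libraries, so their values are not independent.

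The levels of Timp3 and Adamts1 in LPS+TSLP turned on 1 library. Timp3 was at 101, 123, 130 and 609 CPM and Adamts1, a proteoglycan-cleaving protease, at 59.4, 62, 92.2 and 277 CPM, with replicate 4 the high one in both. Their log2 fold changes against LPS were −0.47 (SE 0.63) and −0.30 (SE 0.48), and −1.48 and −1.06 without replicate 4. Without LPS replicate 3 they were 0.033 and −0.04. Timp4, known from heart and fat, was at 15 CPM in replicate 1 and 2.98 to 3.56 CPM in the other 3 libraries, and 9 heart muscle markers summed to 719 CPM in replicate 1 against 55.1 to 198 CPM in the others. In Vehicle replicate 2 the heart markers summed to 756 CPM with Timp4 at 5.06 CPM, and in LPS replicate 1 to 61.2 CPM with Timp4 at 10.5 CPM. The part of heart tissue in the value of Timp4 was not tested. Mmp19, a broadly expressed MMP, was at −0.66 on that scale (SE 0.23, adjusted p = 0.589), and Adamts4, Adamts9, Mmp3 and Mmp12 had −1.04, −0.40, −0.41 and 0.18.

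LPS+TSLP against Vehicle called 7 members, Mmp14 higher and 6 lower (Adamtsl1, Mmp2, Mmp15, Mmp17, Timp2 and Mmp28), with 14.2% of all genes called, 8.82% higher and 5.35% lower. The median log2 fold change was −0.52 over the members and 0.03 over all genes. All 7 were among the 13 called in LPS against Vehicle, and both comparisons share the Vehicle libraries. The log2 fold change of Mmp14 was 1.0 (SE 0.30, adjusted p = 0.0467), beside 1.03 in LPS. Adamtsl1 was at 4.95, 5.66, 3.67 and 7.24 CPM and fell by 1.84 on the log2 scale (SE 0.28, adjusted p = 0.00381), beside 2.23 in LPS. The other values were −1.27 for Mmp2 (SE 0.23, adjusted p = 0.00789), −1.17 for Mmp15 (SE 0.25, adjusted p = 0.0145), −1.01 for Mmp17 (SE 0.25, adjusted p = 0.0257), −0.99 for Timp2 (SE 0.26, adjusted p = 0.0281) and −1.26 for Mmp28 (SE 0.37, adjusted p = 0.0422).

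Of the 6 members called in LPS and not here, Adamts7 and Adamtsl5 had the smallest log2 fold changes (−0.31 and −0.28), and Adamts17, Mmp11, Adamtsl3 and Adamts2 were at −0.96, −0.81, −0.76 and −0.74. None of Mmp8 (−0.32, SE 0.48), Mmp9 (−1.11, SE 0.74), Timp1 (0.99, SE 0.75) and Timp3 (−1.26, SE 0.63) was called. The calls of Mmp2 and Adamtsl1 held in all 23 alternatives, while that of Mmp14 was lost in 10, those of Mmp28 and Mmp17 in 7 each, that of Timp2 in 5 and that of Mmp15 in 1. Without LPS+TSLP replicate 4, 10 members fell in place of 6, with Timp3, Adamts1, Adamts2 and Mmp19 added. Of the 7 calls 2 were left once Vehicle replicate 1 was omitted (Mmp2 and Adamtsl1), and 3 once Vehicle replicate 2, LPS+TSLP replicate 2 or LPS+TSLP replicate 3 was (Mmp15 in addition). Omitting LPS replicate 1, 2 or 3 or LPS+TSLP replicate 1 ended the call of Mmp14, and omitting LPS replicate 2 ended that of Mmp28. With LPS replicate 1 and LPS+TSLP replicate 1 both omitted, 6 of the 7 calls were kept (Mmp14 was lost), and Adamts6 and Mmp25 were added.

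The partners of these proteases were read from lists chosen with earlier results of these data known, beside the 14.2% of genes higher and 10.7% lower in LPS. Of 16 tested matrix substrates, 7 fell and none rose, at a median log2 fold change of −1.06. They included the basement membrane proteoglycan Hspg2 (582 ± 28.1 CPM in Vehicle against 142 ± 37.9 CPM in LPS, SD over 3 libraries each) and the matrix proteins Ltbp4 and Fbln1, at log2 fold changes of −1.97, −2.62 and −3.04. Aggrecan (Acan), the substrate that names the aggrecanases, was at 0 in all libraries. Of 19 tested protease activators and other inhibitors 6 rose and 1 fell. The urokinase receptor Plaur was at 68.1 ± 20 CPM in Vehicle and 204 ± 42.9 CPM in LPS (log2 fold change 1.67), and the leukocyte protease inhibitor Slpi had 2.28. Reck, a membrane-anchored MMP inhibitor, fell by 1.37 on the log2 scale (adjusted p = 0.0114).

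Of 5 receptors that clear or bind these proteins, Lrp1, which takes up MMPs and TIMPs from outside the cell, fell (log2 fold change −1.09, adjusted p = 0.0314) and the other 4 were not called. Of the 13 related ADAM genes 1 fell, Adam23 (−1.11, adjusted p = 0.0478). In LPS+TSLP against Vehicle 4 of the 16 substrates fell, none of the 19 activators and inhibitors was called, Lrp1 fell by 1.26 on the log2 scale, and of the ADAM genes Adam19 fell by 1.05. No gene of these lists was called in LPS+TSLP against LPS.

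Markers of lung cell types moved in LPS as well. Of 20 fibroblast markers 9 fell and none rose, and their sum was 7136 to 8949 CPM in Vehicle, 2312 to 4486 CPM in LPS and 3402 to 5936 CPM in LPS+TSLP. Of 15 smooth muscle and pericyte markers 9 fell, with sums of 1644 to 2474, 874 to 1129 and 1239 to 1911 CPM in the same order. Of 16 endothelial markers 6 fell (6430 to 8447, 4808 to 5414 and 3845 to 5811 CPM), and of 8 mesothelial markers 1 fell. The part of these cells in the lower levels of Mmp2, Timp2, Adamts2 and the other members that fell was not tested. Of 13 alveolar macrophage markers 1 rose and 3 fell, of 15 monocyte and interstitial macrophage markers 3 rose, of 15 alveolar epithelial markers 1 rose and 2 fell, and of 13 airway epithelial markers 1 rose and 1 fell. The sum of the alveolar epithelial markers was also lower in every LPS library (9713 to 20440 CPM) than in every Vehicle library (21410 to 31750 CPM). In LPS+TSLP it was 5078 to 29780 CPM and overlapped Vehicle. The part of epithelial cells in the members that fell was not tested. Markers of tissues next to the lung varied too, and 9 heart muscle markers summed to 111 to 756 CPM in Vehicle and 41 to 292 CPM in LPS, and 17 markers of cartilage, fat, muscle, thyroid and thymus to 21.2 to 192 CPM and 3.7 to 15.2 CPM, with 1 gene called lower in each list (Actc1 and Plin1).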

How the data were processed

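RNA of 10 lung libraries was sequenced. The values deposited by the authors are raw counts of reads for each gene, whole numbers with no normalization, and the submitters' processing notes name CASAVA, HISAT2 and HTSeq 0.6.0 with the builds GRCm38 and mm10; the annotation release and strand setting are not given in the sources used here. All 51 members were found in the GENCODE M21 annotation of GRCm38, which gave positions and exon lengths.

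Libraries were grouped by the treatment in the labels. Counts were filtered with filterByExpr, scaled by TMM and tested two-sided in R 4.3.3 with edgeR 4.0.16 (robust quasi-likelihood, 10 libraries in 1 fit of 3 groups, 7 residual degrees of freedom), with Benjamini-Hochberg adjustment over 17139 genes and a threshold of 0.05. CPM values use the raw library totals, and levels between genes are divided by exon length. The fit was tested on simulated counts.

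The members, the gene lists and the rule for naming were chosen with earlier results of these data known. The rule gives full statistics to Mmp8, Mmp9, Timp1, 10 further anchors (Mmp2, Mmp3, Mmp12, Mmp14, Timp2, Timp3, Timp4, Adamts1, Adamts4 and Adamts9) and up to 12 called members with the smallest adjusted p per comparison, and names up to 3 called genes of each list. The remaining members named were added after their values were seen. The labels give no pairing beyond replicate numbers, so no block was used. Libraries with equal numbers had correlations of deviations from the group means from −0.344 to 0.405, over 0.1 in 3 of 9 pairs. Pairs with unequal numbers were not compared, so these values cannot tell whether libraries were paired. The 23 alternatives changed the scaling, the filter, the tool (limma 3.58.1, DESeq2 1.42.0), the libraries in the fit, the block, GC and length trends (loess span 0.3) and left out each library.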

Additional observations from a re-analysis of the deposited data

Results flagged for a closer look

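In the LPS+TSLP group, the 1 group with enough libraries for the comparison, 6 of 41 tested members had a library far from the other 3 by Dixon's test of the gap against the range. Chance flags about 1 in 20 groups. Replicate 4 was the high library for Timp3 (608.9 CPM, the others 101 to 129.5 CPM), Adamts1 (277.2 CPM, the others 59.4 to 92.2 CPM) and Adamts9 (60.8 CPM, the others 34.5 to 38.5 CPM). Replicate 1 was the high library for Timp4 (15.02 CPM, the others 2.98 to 3.56 CPM) and Adamtsl3 (21.76 CPM, the others 14.5 to 15 CPM), and the low one for Adamtsl4 (50.69 CPM, the others 90.3 to 95.8 CPM).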

How the results depend on the processing

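For the 23 members given with full statistics the 23 alternatives gave 529 values per comparison, of which 475 in LPS against Vehicle, 512 in LPS+TSLP against LPS and 483 in LPS+TSLP against Vehicle kept their direction and side of the threshold. Every member called in LPS against Vehicle or in LPS+TSLP against Vehicle kept its direction in all 23. With single libraries left out, the number of all genes called was 1661 to 5424 in LPS against Vehicle, 0 to 1 in LPS+TSLP against LPS and 516 to 3493 in LPS+TSLP against Vehicle. Members called higher then numbered 0 to 2 in LPS against Vehicle and 0 to 1 in LPS+TSLP against Vehicle, and members called lower 5 to 14 and 2 to 10. Fewer libraries are fitted there; beyond that the cause was not tested. The DESeq2 Wald test called 34 genes in LPS+TSLP against LPS and 3925 in LPS+TSLP against Vehicle. Removing the GC trend left 1416 genes and 3 lower members in LPS+TSLP against Vehicle, and leaving out LPS+TSLP replicate 1 with LPS replicate 1 gave 3842 genes there and 2 higher members in LPS against Vehicle. Fitting the 2 groups alone gave 2 higher members in LPS against Vehicle and 0 in LPS+TSLP against Vehicle.

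The replicate block enters the replicate number, although the labels name no pairing. It gave 2 higher members in LPS against Vehicle (Mmp8 added) and 10 lower members in place of 6 in LPS+TSLP against Vehicle. The genes called with it were 4493, 0 and 3454 in the 3 comparisons in the order given above. The cause was not tested.

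Uncalled values near 0 changed sign. In LPS against Vehicle, log2 fold changes over single omitted libraries ran from −0.392 to 0.64 for Mmp9, −0.083 to 0.527 for Mmp3, −0.054 to 0.85 for Timp4, −0.321 to 0.114 for Adamts1, −0.457 to 1.411 for Adamts4 and −0.328 to 0.215 for Adamts9. Adamts1 was at 0.09 with the GC trend removed, 0.056 with the block as well, 0.057 with the length trend removed and 0.14 without both doubted libraries (LPS replicate 1 and LPS+TSLP replicate 1). Adamts9 was at 0.007 and 0.068 with the GC or length trend removed and 0.208 without both doubted libraries, where Timp4 was at −0.032. In LPS+TSLP against LPS the ranges were −0.125 to 0.394 for Mmp12, −0.268 to 0.087 for Mmp14, −1.478 to 0.033 for Timp3, −1.145 to 0.429 for Timp4 and −0.014 to 0.369 for Mmp17. Mmp14 was at 0.03 with upper quartile factors, 0.058 with the block and 0.025 with block and GC trend, where Mmp17 was at −0.008. Mmp12 was at −0.001 with the block and −0.133 without both doubted libraries. In LPS+TSLP against Vehicle the ranges were −0.569 to 0.088 for Mmp8, −0.513 to 0.097 for Mmp3, −0.643 to 0.698 for Timp4 and −1.56 to 0.354 for Adamts4. Timp4 was at −0.007 by limma-voom, and without both doubted libraries Timp4 was at −0.624 and Mmp8 at 0.021. The cause of these changes was not tested.

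With 3 or 4 libraries a group the spread limits the precision, and members below 1 CPM (Adamts13, Adamts20, Mmp16 and Mmp27 in most libraries) carry counting error on top.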
